A study of Mus musculus with 27 samples.

Results

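The Ikaros family of the mouse consists of 5 genes, Ikzf1 (Ikaros), Ikzf2 (Helios), Ikzf3 (Aiolos), Ikzf4 (Eos) and Ikzf5 (Pegasus). All 5 were taken by gene symbol from the 3 RNA-seq count tables of a study of the transcription factor TAL1 and the kinase AKT in T-cell leukaemia, out of 22729 symbols that the tables share. The 27 libraries form 9 groups of 3. Thymus was taken from C57BL/6 mice after bone marrow transplantation, and the mice were labelled empty vector, TAL1 overexpression, AKT(E17K), or constitutive TAL1 together with AKT(E17K), an activated form of AKT. The last pair of groups shares AKT(E17K), so a comparison between them sets TAL1 against no TAL1 on that background. The remaining 5 groups are ProT cells, a T-cell progenitor line carrying a CreER/LoxP construct for TAL1. They were sampled after 0, 6, 12, 18 and 24 h of 4-hydroxytamoxifen, which activates CreER. Their labels read induced expression of TAL1 at every time, including 0 h. All ProT groups come from this 1 line, and nothing in the labels tells whether the 3 libraries at 1 time are 3 cultures. The p-values there measure only the spread between these libraries, which may be technical. The labels give no age of the mice, no promoter of the vectors and no share of host cells in the thymus.

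Ikaros proteins are zinc finger transcription factors of the lymphoid lineage. Fingers near the N-terminus bind DNA, and a pair at the C-terminus joins members of the family into homodimers and heterodimers. Ikaros recruits the chromatin remodelling and deacetylase complex NuRD in thymocytes, restrains Notch target genes and acts as a tumour suppressor in the T lineage. Helios and Eos are known from regulatory T cells, where both contribute to stable function, and Helios is also present in T-cell progenitors. Aiolos is most abundant in later thymocytes and B cells, and Pegasus is the most divergent and the most widely expressed member.

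The relatedness of the members is shown first because it bears on how reads can be assigned to them. The 63 bases that code for the second zinc finger are given, since this finger binds DNA and is the surface through which, in human cells, thalidomide analogues bring Ikaros and Aiolos to cereblon, the substrate receptor of a ubiquitin ligase. Capitals mark the codons of the cysteines and histidines that hold the zinc ion. The sequences come from the GENCODE M21 transcripts and are printed in the direction of the gene.
Ikzf1: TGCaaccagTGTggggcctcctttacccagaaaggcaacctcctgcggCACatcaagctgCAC
Ikzf2: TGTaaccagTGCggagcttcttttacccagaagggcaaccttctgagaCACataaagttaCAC
Ikzf3: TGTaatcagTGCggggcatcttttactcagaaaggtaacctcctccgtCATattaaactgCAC
Ikzf4: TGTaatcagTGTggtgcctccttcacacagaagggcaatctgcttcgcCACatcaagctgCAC
Ikzf5: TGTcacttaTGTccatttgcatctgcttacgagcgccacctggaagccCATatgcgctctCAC
Each stretch is coding and lies within 1 exon of its gene on GRCm38, at chr11:11754024-11754086 on the plus strand for Ikzf1, chr1:69570581-69570643 on the minus strand for Ikzf2, chr11:98488940-98489002 (minus) for Ikzf3, chr10:128640229-128640291 (minus) for Ikzf4 and chr7:131392501-131392563 (minus) for Ikzf5. Ikzf1 shares 81.0% of these bases with Ikzf2 and with Ikzf3 and 84.1% with Ikzf4, whereas Ikzf5 shares only 41.3 to 47.6% with the other members.

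Over whole transcripts the members are easily told apart: the longest run of identical bases between any pair is 32, between Ikzf2 and Ikzf4. The genes span chr11:11685003-11772926 (Ikzf1), chr1:69531214-69687245 (Ikzf2), chr11:98464902-98546031 (Ikzf3), chr10:128630843-128645991 (Ikzf4) and chr7:131388652-131410521 (Ikzf5). Neighbouring genes matter for 1 member. Ikzf5 shares 81.3% of its exon bases with Pstk, a gene on the opposite strand that codes for a selenocysteine pathway kinase. The strand setting of the counting is not given in the sources used here, so Ikzf5 counts are uncertain. Overlaps cover 1.24% of the exon bases of Ikzf2 and 0.617% of those of Ikzf4. Counts are per gene, so the splice forms of Ikaros, including those that lack DNA-binding fingers, cannot be seen in them.

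Gene counts per library ran from 3893990 to 5915285 for the empty vector, from 7155918 to 11302098 for TAL1, from 2073752 to 3661056 for AKT(E17K), from 2230143 to 2792084 for AKT(E17K) with TAL1 and from 2660641 to 6599146 for ProT cells. The edgeR fit put the biological coefficient of variation at 22.0% in the table of empty vector and TAL1 mice, 35.0% in the table of AKT(E17K) mice and 11.6% in ProT cells. Tal1 itself did not check the labels. It had 0 counts in every mouse labelled TAL1, with or without AKT(E17K), and the ProT libraries held 2895, 3028 and 3098 CPM, read counts scaled to a common library size, before 4-hydroxytamoxifen and 2068, 2026 and 1963 CPM at 24 h, a log2 fold change of -0.57 ± 0.12 (SE; edgeR quasi-likelihood adjusted p = 0.00172). Gene counts cannot show the E17K change in Akt1 either. Directions below therefore refer to mice or times as labelled.

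Per length of all annotated exons, Ikzf1 was the most abundant member in all 9 groups. In empty vector thymus Ikzf1 made up 65.9% ± 0.972 (SD, n = 3) of the family's summed CPM per kb of exon, Ikzf2 14.4%, Ikzf5 9.98%, Ikzf3 7.71% and Ikzf4 1.98%. Shares in mice labelled TAL1 were 65.4% for Ikzf1, 14.1% for Ikzf2, 12.6% for Ikzf5 and 7.35% for Ikzf3, and that of Ikzf4 was 0.546%. In AKT(E17K) thymus the shares were 53.1% ± 7.41 for Ikzf1, 29.7% ± 9.39 for Ikzf5, 15.4% for Ikzf3 and 1.54% ± 0.997 for Ikzf2. The count table of the AKT(E17K) mice holds 22906 gene rows, against 46078 in each of the others. A difference in counting and one between mice cannot be told apart here. In mice labelled AKT(E17K) with TAL1 the Ikzf2 share was 11.2% ± 3.89. ProT cells at 0 h combined 58.2% Ikzf1 with 24.0% Ikzf2 and 14.7% Ikzf5, and held almost no Ikzf3, at 0.269%. Ikzf4 took shares of 2.87%, 3.06%, 6.19%, 5.10% and 4.78% at the 5 ProT times in order. These shares depend on the exon length used, the union of all annotated exons of a gene: with the longest transcript instead, Ikzf1 came to 60.7% and Ikzf3 to 12.0% in empty vector thymus. They also take the full exon length of Ikzf5, of which 81.3% overlaps Pstk. With the strand setting unknown, the Ikzf5 shares and the rank of Ikzf1 above Ikzf5 are uncertain.

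**Figure D1:**
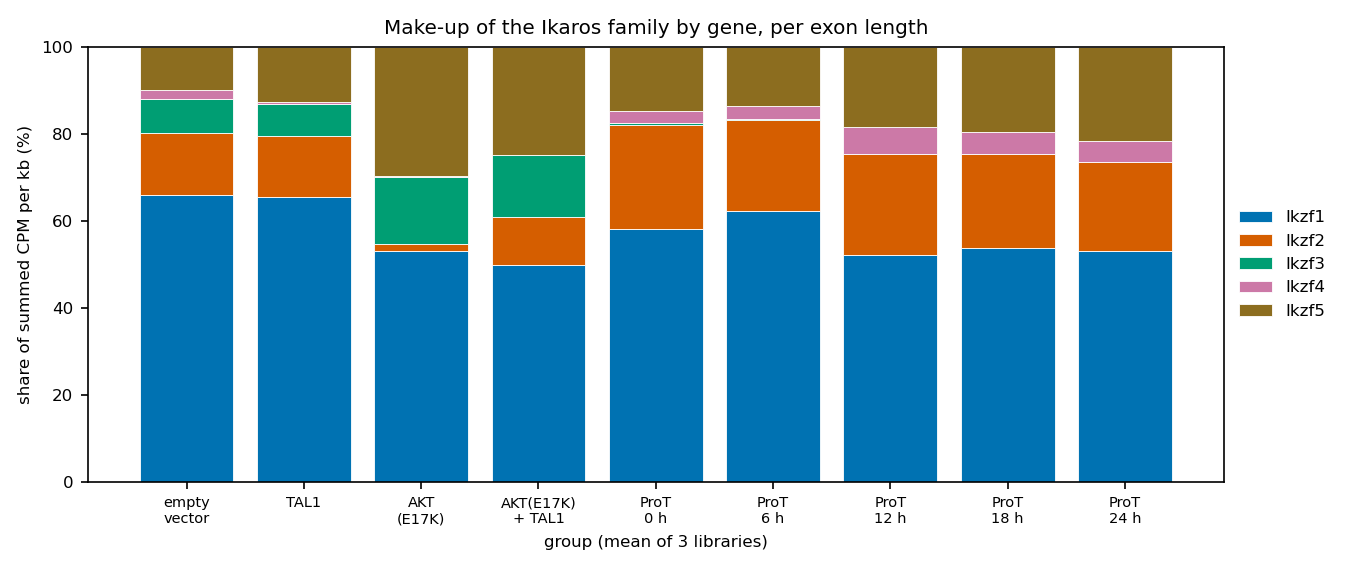
Share of each Ikaros family member (y axis, percent) in the family's summed CPM per kb of exon, mean of 3 libraries in each of the 9 groups (x axis). Ikzf1 forms the largest part of every bar, Ikzf2 is nearly missing in AKT(E17K) mice at 1.54%, and Ikzf3 is nearly missing in ProT cells. The part of Ikzf5 is uncertain because its exons overlap Pstk.

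The summed family level was 247 ± 8.12 CPM per kb (SD, n = 3) in empty vector thymus and 235 ± 15.7 in mice labelled TAL1. It was 92.6 ± 35.4 in AKT(E17K) thymus, 139 ± 22.2 with TAL1 added, and between 99.4 and 122.1 at the 5 ProT times. Levels across tables are given as a description on 1 common scaling of all 27 libraries, because the tables were deposited separately and table, AKT(E17K) and cell system cannot be told apart across them. On that scale Ikzf1 was highest in empty vector thymus at 940 ± 20.1 CPM, followed by TAL1 thymus at 887 ± 64.7, with these neighbours overlapping within their spread. ProT cells at 6 h followed at 439 CPM, and AKT(E17K) thymus was lowest at 290 ± 142. Its mice ran from 201 to 454 CPM, a range that overlaps every ProT group and AKT(E17K) with TAL1. The ProT means at 12, 18 and 24 h were 299, 331 and 314 CPM. Ikzf2 ran from 413 CPM in empty vector thymus and 385 in TAL1 thymus through 336 in ProT cells at 0 h to 185 in AKT(E17K) with TAL1 and 17.7 in AKT(E17K) thymus. Ikzf3 was similar in the 4 thymus groups, at 131 to 169 CPM, and at 0.236 to 2.83 CPM in ProT cells. Ikzf4 was highest in ProT cells at 12 h, at 36.5 CPM, stood at 29.3 in empty vector thymus and 7.64 in TAL1 thymus, and was lowest in the AKT(E17K) groups at 1.38 and 0.691 CPM. Ikzf5 varied least between groups, from 94.5 to 197 CPM.

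The first comparison asks what TAL1 changed in the thymus without AKT(E17K). Ikzf4, the Eos gene, was the member that fell. It measured 25.3, 27.8 and 24.0 CPM in the empty vector mice and 4.72, 5.50 and 9.53 CPM in the mice labelled TAL1. The groups did not overlap, as for 23.1% of all genes tested, and the highest TAL1 mouse lay well below the lowest empty vector mouse. The means were 25.7 ± 1.93 and 6.58 ± 2.58 CPM (SD, n = 3), a ratio of 0.261 and a log2 fold change of -1.94 ± 0.29 (SE; 95% interval -2.56 to -1.32; edgeR adjusted p = 0.00233). Of 12357 genes tested in this comparison 623 were called, 5.04%, of which 267 were higher and 356 lower. Leaving out 1 mouse at a time gave log2 fold changes of -2.33 to -1.75 with adjusted p between 0.000708 and 0.0154. In bulk thymus RNA, fewer cells of a type and less RNA per cell cannot be told apart.

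The other 4 members did not pass the test in this comparison. Ikzf1 measured 798, 833 and 840 CPM against 834, 721 and 745, and the ranges overlapped. Its log2 fold change was -0.10 with a 95% interval of -0.28 to 0.07 (adjusted p = 0.598). Ikzf2, the Helios gene, measured 291, 383 and 412 CPM against 368, 299 and 331, also overlapping, at -0.12 (-0.40 to 0.15; adjusted p = 0.706). Ikzf3 measured 140, 146 and 151 CPM against 140, 129 and 123. The Ikzf3 groups did not overlap but lay next to each other, as did 23.1% of all genes tested, and the log2 fold change was -0.16 (-0.39 to 0.06; adjusted p = 0.481). Ikzf5 measured 144, 100 and 126 CPM against 146, 137 and 154, at 0.24 (-0.04 to 0.52; adjusted p = 0.383), with Pstk on the other strand at 5.40 to 9.89 and 5.12 to 9.72 CPM. The intervals for Ikzf1, Ikzf2 and Ikzf3 leave room for falls no larger than 0.40 on the log2 scale.

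**Figure D2:**
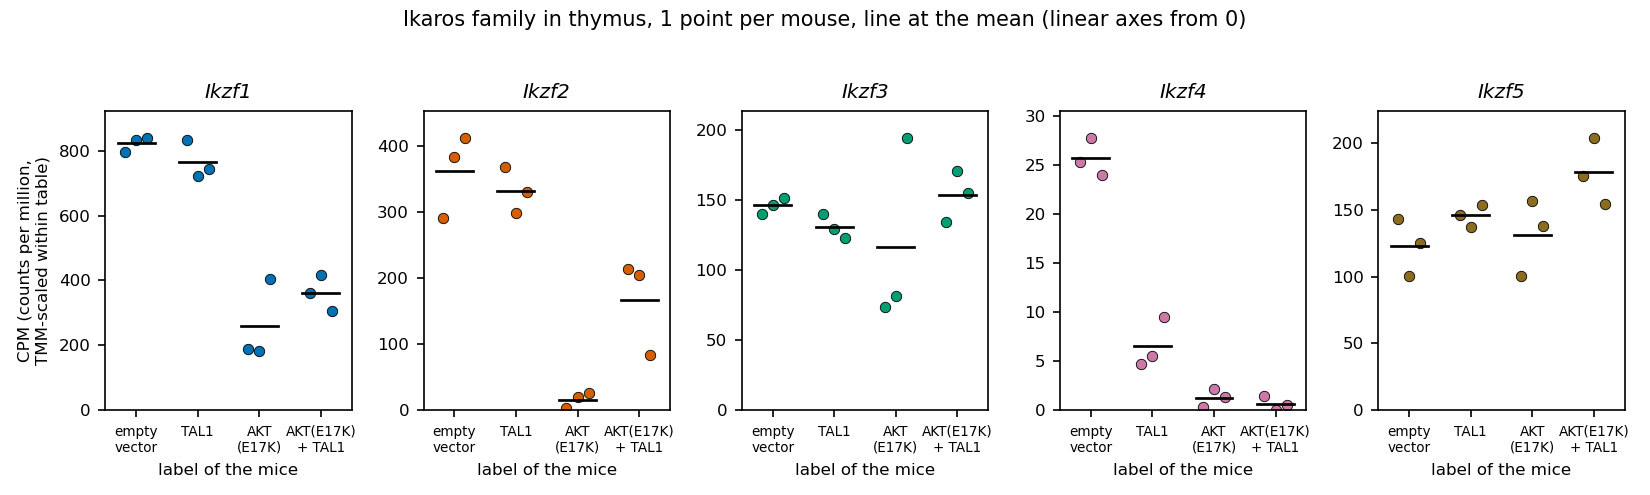
CPM of each Ikaros family gene (y axes, linear, from 0) in the 4 thymus groups (x axis), 1 point per mouse with a line at the mean. The 3 mice labelled TAL1 lie at 4.72 to 9.53 CPM of Ikzf4, below the empty vector mice at 24.0 to 27.8, and the AKT(E17K) mice lie at 2.88 to 25.7 CPM of Ikzf2, below those with TAL1 added at 83.9 to 214.

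Marker lists of other thymic cells moved in the same comparison, in which 5.04% of all genes tested were called. Of the regulatory T cell markers 3 of 6 were lower: Foxp3, the lineage factor, at -4.26 ± 0.90 (edgeR adjusted p = 0.0147), and the receptors Tnfrsf4 at -1.58 and Tnfrsf18 at -0.81. Foxp3 was scarce in every mouse, at 2.16, 3.86 and 8.21 CPM against 0.286, 0 and 0.360. The 6 regulatory T cell markers had overlapping sums of 123 to 151 CPM with the empty vector and 69.2 to 123 CPM with TAL1. Of the markers not called, Ctla4 and Tnfrsf9 had lower means with TAL1, and Il2ra a higher one (33.7 against 46.4 CPM). Mature T cell markers were lower for 5 of 6 genes, led by S1pr1 (-3.23), Ccr7 (-2.46), Klf2 (-2.02) and Il7r (-1.84), which serve exit from the thymus, homing, quiescence and IL-7 signalling. Their sum was 755 to 794 CPM against 293 to 398. Markers of natural killer and innate-like cells were lower for 3 of 4 tested. All 7 genes of that list summed to 37.7 to 114 and 11.7 to 14.4 CPM, mostly Il2rb (means 51.2 and 7.62 CPM). Means were higher with TAL1 for Tbx21 (0.892 and 2.56 CPM), Zbtb16 (1.37 and 1.56) and Ncr1 (0.0554 and 0.183). Markers of double-positive thymocytes, the main population of the thymus, were higher for 3 of 8, with sums of 5965 to 7371 and 8175 to 9405 CPM. Gamma-delta T cell markers were higher for 2 of 5, Sox13 (2.63) and Trdc (1.06), with overlapping sums of 128 to 333 and 249 to 469 CPM. Markers of agonist-signalled thymocytes were lower for 1 of 6, Nr4a3 (-1.08), with overlapping sums of 251 to 354 and 165 to 267 CPM. The remaining lists had 0 genes called, of 1 B cell, 4 plasmacytoid dendritic, 5 myeloid, 4 erythroid, 2 progenitor and 1 thymic epithelium genes tested. Other genes of these lists fell below the filter on low counts, so a change in them was not tested. The share of reads outside annotated genes was 33.0% in the empty vector libraries and 29.8 to 30.3% in those labelled TAL1. Mouse M318, labelled TAL1, held 372 CPM of summed myeloid markers against 13 and 15 CPM in the other mice of its group, and its Ikzf4 value, 5.50 CPM, lay between theirs. The part of these shifts in the Ikzf4 result was not tested.

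The second comparison makes the same contrast in mice that carry AKT(E17K). No member was called here, nor was any gene: 0 of 9782 genes tested passed edgeR's adjusted threshold, 0%, with 709 at an unadjusted p below 0.05. DESeq2 called 66 genes and edgeR without a filter on low counts called 30. Ikzf2 had the widest gap among the members. It measured 2.88, 19.0 and 25.7 CPM in AKT(E17K) mice, from 9, 36 and 100 counts, and 214, 204 and 83.9 CPM in mice labelled AKT(E17K) with TAL1, from 609, 578 and 180 counts. The groups did not overlap, a pattern seen in 11.9% of the genes tested. The means were 15.9 ± 11.7 and 167 ± 72.6 CPM (SD, n = 3), a ratio of 10.5 and a log2 fold change of 3.40 ± 0.65 (SE; 95% interval 1.95 to 4.85). Its edgeR p was 0.000454 before adjustment and 0.342 after. With no filter on low counts the adjusted p was 0.0118 and with DESeq2 3.53e-06, at log2 fold changes of 3.39 and 3.41. Whether Ikzf2 is called thus depends on the fit, while its estimate lay between 3.39 and 3.41 in these 3 fits. Leaving out 1 mouse moved it more, from 2.89 without m121 to 4.04 without m124, with adjusted p between 0.0994 and 0.993.

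The remaining members had intervals that include 0. Ikzf1 measured 190, 181 and 405 CPM against 362, 416 and 305, overlapping through mouse m124, the AKT(E17K) mouse at 405, with a log2 fold change of 0.48 (-0.27 to 1.23; edgeR adjusted p = 0.766). Ikzf3 showed the same mouse apart, at 73.7, 81.6 and 194 CPM against 134, 171 and 155, and came to 0.39 (-0.42 to 1.20; adjusted p = 0.835). Ikzf5 measured 101, 156 and 138 CPM against 176, 204 and 155, at 0.44 (-0.10 to 0.97; adjusted p = 0.711). Without m124 the log2 fold changes were 0.96 for Ikzf1 (adjusted p = 0.173) and 0.98 for Ikzf3 (0.153), and over all 6 mice left out in turn they ran from 0.28 to 0.96 and from 0.14 to 0.98. Ikzf4 fell below the filter on low counts, with 1, 4 and 5 counts in AKT(E17K) mice and 4, 0 and 1 with TAL1 added. The 0 allows up to 1.13 CPM at 3 counts, so a fall in Ikzf4 from the level of the AKT(E17K) mice was not detectable at this depth.

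Regulatory T cell markers differed among themselves in these mice. None of the 4 regulatory T cell markers tested was called. Foxp3 measured 13.1, 5.27 and 25.2 CPM in AKT(E17K) mice and 26.8, 12.4 and 8.85 with TAL1 added, so the groups overlapped. Ctla4, an inhibitory receptor of regulatory T cells, was at 0 in all AKT(E17K) mice and in all but 1 of the others, where it had 0.466 CPM. Il2ra, the IL-2 receptor alpha chain carried by both early thymocytes and regulatory T cells, measured 39.1, 64.3 and 45.0 CPM against 512, 1326 and 308. Its groups did not overlap, as for 11.9% of all genes tested, and it was not called (log2 fold change 3.86 ± 0.54, edgeR adjusted p = 0.218). The list's sum followed Il2ra, at 86.2 to 105 CPM against 348 to 1374. Other lists separated the groups without overlap in the opposite direction to Ikzf2, beside 11.9% of single genes tested that did not overlap in either direction. Plasmacytoid dendritic cell markers summed to 592, 492 and 456 CPM in AKT(E17K) mice and 375, 313 and 338 with TAL1 added, B cell markers to 24.3, 22.1 and 12.6 against 7.75, 5.65 and 0.466, and thymic epithelium markers to 28.8, 15.8 and 4.11 against 0.352, 0 and 3.26. Only 1 of 5 thymic epithelium genes and 0 of 6 B cell genes passed the filter on low counts, so the sums of these lists hold genes too scarce to test. On the plasmacytoid list the means of Tcf4 (274 against 162 CPM), Bst2 (127 against 63.2) and Irf8 (49.1 against 11.9) were lower with TAL1 added. That of Ccr9 was higher (64.0 against 105), and Siglech was near 0 in both groups (0.107 and 0.352). Further lists overlapped and varied between mice of a group: myeloid markers summed to 885, 76.9 and 197 CPM in AKT(E17K) mice and 342, 192 and 80.1 with TAL1 added, and erythroid markers to 935, 124.3 and 586 against 184, 444 and 83.4. Mature T cell markers summed to 14.2 to 36.3 CPM and 41.0 to 65.5 CPM, without overlap and in the direction of Ikzf2. The part of other cells in the Ikzf2 values was not tested.

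**Figure D3:**
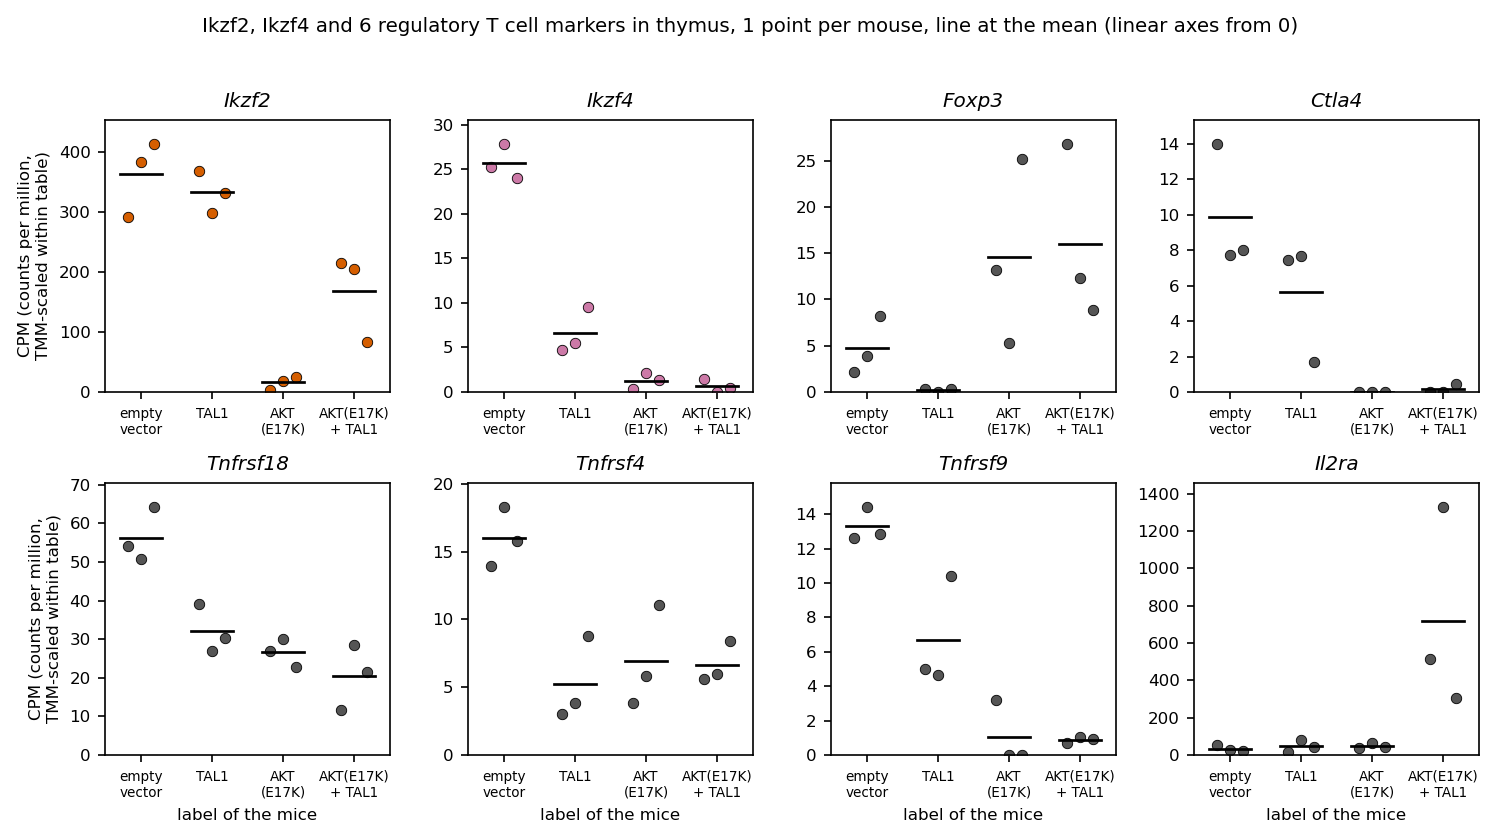
CPM (y axes, linear, from 0) of Ikzf2, Ikzf4 and the 6 regulatory T cell markers in the 4 thymus groups (x axis), 1 point per mouse with a line at the mean. Il2ra is high in the mice where Ikzf2 is high among those with AKT(E17K), Foxp3 overlaps between these groups, and Ctla4 is at 0 in 5 of their 6 mice.

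The difference between the TAL1 contrasts with and without AKT(E17K) was tested directly over all 12 mice, and 18 of 10947 genes were called, 0.164%, all with a higher contrast in the presence of AKT(E17K). No member was among them. Ikzf2 came closest, with a difference of 3.54 ± 0.67 on the log2 scale (95% interval 2.10 to 4.99; edgeR adjusted p = 0.0648). It passed the threshold with no filter on low counts (adjusted p = 0.00111) and with DESeq2 (adjusted p = 0.00938). It also passed without mouse m121 (3.03, adjusted p = 0.0313), without m124 (4.24, 0.0159) or without m119 (3.86, 0.0183). For Ikzf1 the difference was 0.60 (adjusted p = 0.576), for Ikzf3 0.57 (0.634) and for Ikzf5 0.22 (0.802). Without m124 the differences rose to 1.09 for Ikzf1 (adjusted p = 0.0261) and 1.17 for Ikzf3 (0.0219), and 173 genes were called, so these values rest on 1 mouse. For Ikzf4 the difference was 1.14 ± 1.09 (edgeR adjusted p = 0.731). It changed sign when mouse m116 was left out (-0.39), within a range of -0.39 to 1.74 over the mice left out in turn. Ikzf4 had only 1, 4 and 5 counts in AKT(E17K) mice and 4, 0 and 1 with TAL1 added, and fell below the filter within that pair. This test therefore cannot tell whether the fall in Ikzf4 without AKT(E17K) differs from the contrast with it.

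The ProT time course asks how the genes follow 4-hydroxytamoxifen in a single line. Ikzf1 fell and Ikzf4 rose between 6 and 12 h, and neither passed the test from 12 to 24 h. At 6 h against 0 h no member and no gene was called, 0 of 13610 or 0% by edgeR and 0 by DESeq2, with 734 and 545 genes at an unadjusted p below 0.05. Calls among all genes then came to 1635 (12.0%) after 12 h, 1200 (8.82%) after 18 h and 2549 (18.7%) after 24 h. A test of any change over the times called 2455 genes, 18.0%.

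Ikzf1 measured 250, 244 and 262 CPM before 4-hydroxytamoxifen, 278, 280 and 268 CPM after 6 h and 202, 162 and 198 CPM after 12 h. The later libraries held 226, 209 and 189 CPM after 18 h and 198, 205 and 192 CPM after 24 h. Every library from 12 h on lay below every library at 0 and 6 h, and 6.18% of all genes tested were separated in this way in either direction. Relative to the 0 h libraries, Ikzf1 had a log2 fold change of 0.13 after 6 h (edgeR adjusted p = 0.923), -0.43 ± 0.11 after 12 h (0.00851), -0.28 ± 0.11 after 18 h (0.0985) and -0.35 ± 0.11 after 24 h (0.0238). The step from 6 to 12 h, in a comparison that called 1477 genes or 10.9%, was -0.56 ± 0.11 (adjusted p = 0.00103), and the test of any change gave an adjusted p of 0.000856. The 12 h call was lost without library 2 of 12 h (-0.34, adjusted p = 0.0639). The 24 h call was lost whichever of the 6 libraries was left out, at -0.37 to -0.32.

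Ikzf4 measured 11.3, 16.7 and 10.7 CPM before 4-hydroxytamoxifen, 15.7, 11.9 and 14.5 CPM after 6 h and 22.1, 22.9 and 23.4 CPM after 12 h. The later libraries held 22.5, 20.5 and 18.4 CPM after 18 h and 22.2, 17.4 and 15.9 CPM after 24 h. All 12 h and 18 h libraries lay above those of 0 and 6 h, a separation shown in either direction by 7.56% of all genes tested, and 24 h overlapped with 0 h. Relative to the 0 h libraries, Ikzf4 had a log2 fold change of 0.13 after 6 h (edgeR adjusted p = 0.954), 0.82 ± 0.19 after 12 h (0.00427), 0.67 ± 0.19 after 18 h (0.0279) and 0.53 ± 0.19 after 24 h (0.0490). The step from 6 to 12 h was 0.69 ± 0.17 (adjusted p = 0.0100) and the test of any change gave 0.00522. The step lost its call without library 2 of 6 h (0.59, adjusted p = 0.0732). The 18 h call was lost without library 1 or 3 of 0 h (0.61 and 0.51; adjusted p = 0.0973 and 0.146) or library 1 or 2 of 18 h (0.59 and 0.67; 0.132 and 0.0646). The 24 h call was lost without library 1 or 3 of 0 h (0.48 and 0.38; 0.138 and 0.234) or library 1 or 2 of 24 h (0.38 and 0.58; 0.237 and 0.0689). The 12 h rise kept its call in every leave-one-out fit.

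**Figure D4:**
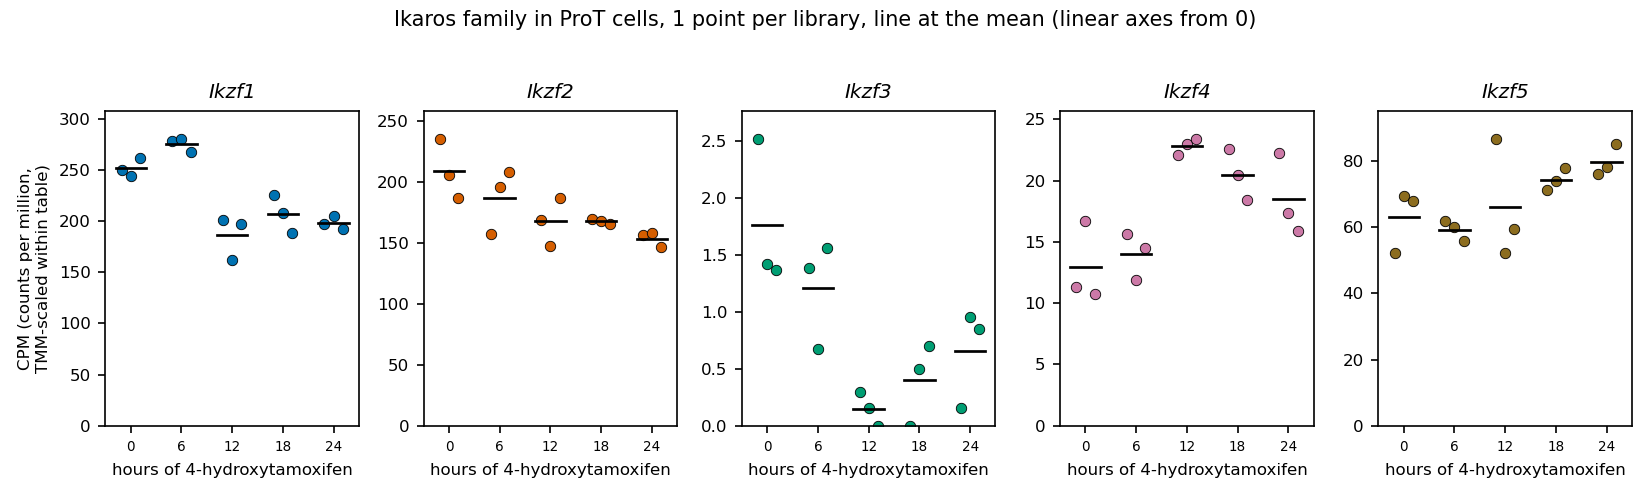
CPM of each Ikaros family gene (y axes, linear, from 0) in ProT cells by hours of 4-hydroxytamoxifen (x axis), 1 point per library with a line at the mean. Ikzf1 is lower from 12 h on. Ikzf4 is higher at 12 and 18 h and overlaps with 0 h at 24 h, and Ikzf3 stays below 3 CPM throughout.

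Ikzf2 measured 235, 205 and 186 CPM before 4-hydroxytamoxifen, 157, 195 and 208 CPM after 6 h and 169, 147 and 187 CPM after 12 h. The later libraries held 169, 168 and 166 CPM after 18 h and 156, 158 and 146 CPM after 24 h. The groups at 18 and 24 h each lay below all 0 h libraries, but groups that do not overlap were common, at 32.3% of all genes tested for 18 h and 40.4% for 24 h. The log2 fold change passed the test at 24 h, at -0.44 ± 0.12 (edgeR adjusted p = 0.0105), and not at 6 h (-0.16, 0.916), 12 h (-0.31, 0.0803) or 18 h (-0.31, 0.0961). Without library 1 of 0 h the 24 h value was -0.35 (adjusted p = 0.0789). The step from 6 to 12 h was -0.16 (adjusted p = 0.433), and the test of any change gave 0.0517.

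Ikzf5 and Ikzf3 were not called at any time. Ikzf5 measured 52.3, 69.4 and 67.9 CPM at 0 h and 76.1, 78.2 and 85.3 at 24 h, without overlap, as for 40.4% of all genes tested, for a log2 fold change of 0.32 ± 0.14 (edgeR adjusted p = 0.112). Its log2 fold change was -0.10 after 6 h, 0.06 after 12 h and 0.22 after 18 h, and 0.16 for the step from 6 to 12 h (adjusted p = 0.507), and the test of any change gave 0.123. Between these times its values ranged from 55.9 to 62.0 CPM (6 h), from 52.3 to 86.7 CPM (12 h) and from 71.2 to 78.1 CPM (18 h). Pstk, its neighbour on the other strand, measured 12.5, 12.8 and 10.1 CPM at 0 h and 9.81, 6.95 and 7.0 at 24 h. Ikzf3 was left out by the filter on low counts, with at most 9 counts in any of the 15 libraries: 6, 5 and 7 before treatment, then 9, 3 and 7 after 6 h, 2, 1 and 0 after 12 h, 0, 2 and 4 after 18 h, and 1, 6 and 4 after 24 h. The zeros at 12 and 18 h allow up to 0.645 and 0.658 CPM, and no change in Ikzf3 was tested. From 12 to 24 h, where 26 genes were called (0.191%), no member was: Ikzf1 differed by 0.08, Ikzf2 by -0.13, Ikzf4 by -0.29 and Ikzf5 by 0.26 on the log2 scale. The Ikzf5 step was 0.51 without library 1 of 12 h (adjusted p = 0.0333).

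**Figure D5:**
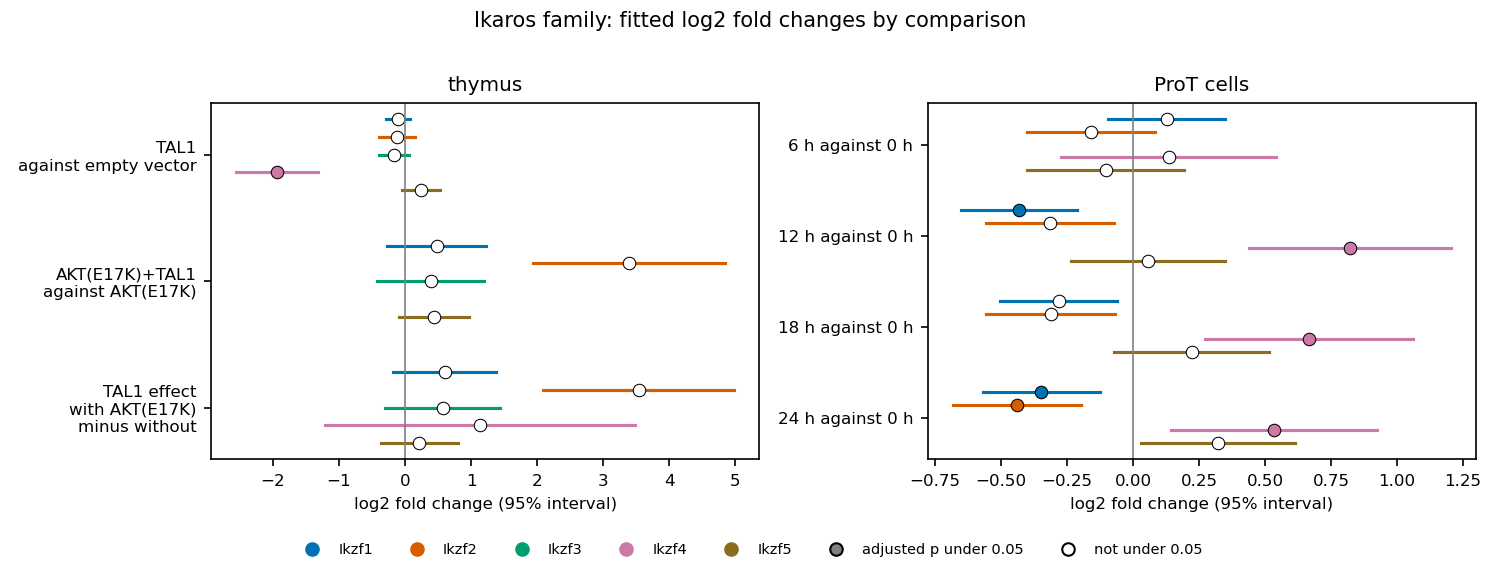
Log2 fold change with its 95% interval (x axis) for each Ikaros family gene in the comparisons of thymus and ProT groups, filled where the adjusted p is below 0.05. Ikzf4 is lower in mice labelled TAL1 (-1.94) and higher in ProT cells at 12 h (0.82), and Ikzf2 has estimates of 3.40 in the AKT(E17K) pair and 3.54 for the difference between contrasts, neither passing the threshold.

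The size of the ProT calls depends on the scaling. Per the library sizes alone, the median log2 fold change of all genes shifts to 0.10 (6 h), 0.18 (12 h), 0.13 (18 h) and 0.17 (24 h), and, from 12 h on, the share of called genes that are higher becomes 85.8%, 82.0% and 80.5%, against 52.7%, 55.5% and 50.3% with TMM. For 12 h against 6 h the shares are 70.2% and 51.0%. With library sizes alone Ikzf1 came to -0.24 at 12 h and -0.16 at 24 h and Ikzf2 to -0.25 at 24 h. These calls were lost. Subtracting the shifted median takes the shift out again, so values near those with TMM follow from that step. After it Ikzf1 stood at -0.42, -0.27 and -0.33 at 12, 18 and 24 h, Ikzf2 at -0.30, -0.30 and -0.42, Ikzf4 at 0.83, 0.68 and 0.55 and Ikzf5 at 0.07, 0.23 and 0.34. Directions of all 4 were the same under both scalings. The share of reads outside annotated genes also moved with time, from 21.1 to 22.2% without 4-hydroxytamoxifen to between 17.3 and 19.7% after 18 or 24 h, and its part in the changes was not tested. ProT libraries held almost no Cd4 or Cd8a and 11 to 20 CPM of summed double-positive markers, while gamma-delta T cell genes summed to 1369 to 2349 CPM.

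Genes that work with the family were followed through 4 lists: NuRD, other chromatin partners, the cereblon ubiquitin ligase that degrades Ikaros and Aiolos in human cells in the presence of thalidomide analogues, and genes known to respond to Ikaros. In mice labelled TAL1 against empty vector, 0 of 13 NuRD genes were called, beside 5.04% of all genes tested. Their median log2 fold change was 0.12, beside 0.00 over all genes tested. Of other chromatin partners 2 of 9 were higher and none lower: Ezh2, the Polycomb methyltransferase, at 0.66 ± 0.09 (edgeR adjusted p = 0.00121), and Smarcc1, a BAF remodeller subunit, at 0.50 ± 0.10 (0.0116). Of the cereblon ligase 1 of 5 genes was called. Crbn, cereblon itself, measured 76.2, 67.9 and 95.1 CPM with the empty vector and 53.8, 52.7 and 44.4 with TAL1. Its groups did not overlap, as for 23.1% of all genes tested, and Crbn was lower by a log2 fold change of -0.67 ± 0.15 (edgeR adjusted p = 0.0223). Of the Ikaros responsive genes 2 of 23 were higher and 3 lower. The lower ones were Il7r (-1.84), the cell cycle gene Ccnd2 (-1.75) and the adhesion receptor Cd2 (-0.81), and the highest was Dntt (0.61), the terminal transferase of antigen receptor joining. Il7r is also on the mature T cell list and Dntt on the double-positive list.

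In mice labelled AKT(E17K) with TAL1 against AKT(E17K), no gene of the 4 lists was called. Medians were 0.02 for NuRD, 0.12 for other chromatin partners, -0.07 for the cereblon ligase and 0.26 for the Ikaros responsive genes. In the test of the difference between the contrasts 1 of 24 Ikaros responsive genes was called, beside 0.164% of all genes tested. Cd2 measured 274, 318.5 and 343 CPM in empty vector mice and 182, 140 and 210 in mice labelled TAL1, but 0.320, 2.63 and 13.9 CPM in AKT(E17K) mice and 101, 94.6 and 48.9 with TAL1 added, a difference of 4.54 ± 0.77 between the log2 contrasts (edgeR adjusted p = 0.0346). The Cd2 and Ikzf2 values thus were both lowest in AKT(E17K) mice, the same 3 libraries.

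In ProT cells against 0 h, no gene of the 4 lists was called at 6 h. The list counts below stand beside 12.0%, 8.82% and 18.7% of all genes tested called at 12, 18 and 24 h. NuRD genes were called 0 of 13 times at 12 and 18 h and 2 of 13 at 24 h, Mbd3 (0.47) and Rbbp4 (0.38), both higher. Other chromatin partners were higher for 2, 2 and 3 of 10 genes at 12, 18 and 24 h, with Smarcc1 at 0.40, 0.50 and 0.62 and the corepressor Ctbp1 at 0.33, 0.38 and 0.36. Of the cereblon ligase, Crbn was lower at 12 h (-0.41) and Ddb1, its adaptor, higher at 12, 18 and 24 h (0.47, 0.42 and 0.67). Of the Ikaros responsive genes, 4, 3 and 5 of 18 were higher and none lower. They included the Notch targets Dtx1 (1.13, 0.80 and 1.11) and Hes1 (0.93, 0.91 and 0.88) and the receptor gene Il2ra (0.97, 0.75 and 1.06). The medians of this list were 0.14, 0.07 and 0.01, beside -0.01 at all 3 times for all genes tested. From 6 to 12 h, 5 of 18 were higher, among them Dtx1 (1.22), Hes1 (1.20), Il2ra (1.19) and Notch1 (0.64), and Satb1, a chromatin organiser of thymocytes, was lower (-0.38). In that step 10.9% of all genes tested were called, and a part of Ikzf1 in these changes was not tested. These comparisons share the 0 h or the 12 h libraries.

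Across the 15 ProT libraries the members themselves varied in different directions. Pearson's r of log2 CPM was 0.635 between Ikzf1 and Ikzf2, -0.741 between Ikzf1 and Ikzf4, -0.324 between Ikzf1 and Ikzf5, -0.569 between Ikzf2 and Ikzf4, -0.510 between Ikzf2 and Ikzf5 and 0.309 between Ikzf4 and Ikzf5. These values describe libraries that share times and scaling. The genes most like Ikzf1 among 7536 candidates were Calcrl (r = 0.948), Fnbp1 (0.936) and Pou2f2 (0.921). Those most like Ikzf2 were Rnpc3 (0.972), Phip (0.962) and Rbm26 (0.939). For Ikzf4 they were Upp1 (0.918), Samhd1 (0.912) and Mxd3 (0.899), and for Ikzf5 Dnajc8 (0.879), Sin3a (0.828) and Chd1 (0.824).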

How the data were processed

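RNA from thymus or ProT cells was sequenced on Illumina instruments, and the authors deposited raw read counts per gene in 3 tables. The submitters' processing notes list the tools HTSeq, HISAT2, FastQC and SAMtools, with builds GRCm38 and mm10; versions, annotation release and strand setting are not given in the sources used here. Symbols turned into dates were restored (27 in each of 2 tables). Groups follow the labels. Counts were tested with edgeR 4.0.16 (R 4.3.3): TMM scaling, filterByExpr, quasi-likelihood test, Benjamini-Hochberg adjustment over all genes tested, threshold 0.05. Tables were fitted separately, except for the difference between TAL1 contrasts over 12 mice. CPM use the TMM-scaled library size. Floors for 0 are 3 counts and cover counting error only. Exon lengths and finger sequences come from GENCODE M21. Alternatives were RLE scaling, library size only, no filter, DESeq2 1.42.0, leaving out each library, a replicate block and fits of 2 times only. The fits were tested on simulated data. Lines of reads assigned to no gene (17.3 to 33.0% outside features) stayed out, and the table of AKT(E17K) mice had no such lines. All 5 members are named in every comparison, at most 4 called genes per list and comparison with the largest log2 fold change, and the 3 genes of highest r per member with a mean of at least 10 CPM. Members and lists were chosen with earlier results of these data known.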

Additional observations from a re-analysis of the deposited data

How the results depend on the processing

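No member changed direction where it was called. With library size only, Ikzf1 came to -0.24 at 12 h and -0.16 at 24 h and Ikzf2 to -0.25 at 24 h and lost their calls, and Ikzf5 gained one at 24 h (0.51; any time, adjusted p = 0.0447). With no filter, Ikzf1 at 24 h lost its call (-0.32), and Ikzf2 in the AKT(E17K) pair (3.39), its difference between contrasts (3.52) and Ikzf5 at any time (adjusted p = 0.0397) gained one. With DESeq2, Ikzf4 at 24 h lost its call (0.54, adjusted p = 0.0736), and Ikzf2 gained one in the AKT(E17K) pair (3.41), the difference between contrasts (3.55) and any time (0.0272). With only the 2 times compared in the fit, Ikzf1 (-0.29) and Ikzf2 (-0.32) at 18 h and Ikzf5 at 24 h (0.31) gained calls. The cause was not tested. ProT numbers did not pair the libraries (correlation of deviations -0.143 to 0.213 over 30 pairs); with the replicate block Ikzf4 at 24 h lost its call (0.51, adjusted p = 0.0584), and no other member's call changed. Leaving out 1 library gave Ikzf1 -0.49 to -0.34 at 12 h and -0.37 to -0.32 at 24 h, Ikzf2 -0.52 to -0.35 at 24 h, Ikzf4 between 0.51 and 0.90 after 18 h, between 0.38 and 0.77 after 24 h and between 0.59 and 0.79 for 6 to 12 h, Ikzf5 0.12 to 0.51 from 12 to 24 h, and adjusted p at any time of 0.00588 to 0.217 for Ikzf2 and 0.00609 to 0.266 for Ikzf5. In the AKT(E17K) pair it gave 2.89 to 4.04 for Ikzf2. For the difference between contrasts it gave 0.40 to 1.09 for Ikzf1, 3.03 to 4.24 for Ikzf2, 0.32 to 1.17 for Ikzf3 and -0.39 to 1.74 for Ikzf4. Counts of genes called moved by over 1.5 times without a filter for TAL1 against empty vector (1107), 12 to 24 h (22 higher and 99 lower) and the difference between contrasts (58; DESeq2 168), with 2 times only at 18 h (2244) and from 6 to 12 h (573), and by leaving out 1 library for TAL1 against empty vector (337 to 661), 12 h (819 to 1521), 18 h (419 to 1006), 24 h (1447 to 2281), 6 to 12 h (657 to 2434), 12 to 24 h (10 to 213) and the difference between contrasts (2 to 173). Depth limits Ikzf4 in AKT(E17K) mice and Ikzf3 in ProT cells.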
